A study of Mus musculus with 10 samples.

Results

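The 10 genes described here make, load and clear the triglyceride-rich lipoproteins of liver. They are the apolipoprotein genes Apoa1, Apoa4, Apoa5, Apob, Apoc2, Apoc3 and Apoe, together with Mttp, Vldlr and Lipc. They were chosen by name, each matched 1 row of the 46071 in the gene count table, and all 10 passed the filter on low counts that left 14820 genes for testing. RNA sequencing was done on polyadenylated liver RNA from 10 mouse libraries in 3 groups. Control offspring (4 libraries, control 1 to control 4) had a control father and a control mother, both homozygous for the loxP-flanked insulin receptor gene (IRlox/lox) and without Albumin-Cre, from a line bred as controls for 4 generations. FL offspring (3 libraries, FL 5 to FL 7) had a LIRKO father and a control mother. In ML offspring (3 libraries, ML 8 to ML 10) the mother was LIRKO and the father a control. LIRKO mice carry IRlox/lox with 1 copy of Albumin-Cre, whose promoter is active in hepatocytes, so that the insulin receptor is lost from hepatocytes. All parents therefore carry the floxed alleles. The labels give neither the Cre genotype of the FL and ML offspring nor the sex, age, litter or diet of any animal. Nor do they state that libraries come from different animals; the p-values measure only the spread between libraries, part of which may be technical. Groups were compared to ask whether the liver of the offspring differs after a father or a mother without hepatic insulin receptor.

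Hepatocytes export triglyceride as very low density lipoprotein (VLDL). The microsomal triglyceride transfer protein MTTP loads lipid onto apolipoprotein B while it is being made, and smaller apolipoproteins join the particle, decide how fast lipoprotein lipase empties it and mark its remnants for uptake. In mouse liver insulin is known to restrain VLDL output, in part through FOXO1 and its targets Mttp and Apoc3. Apoa1, Apoc3, Apoa4 and Apoa5 lie side by side in 1 gene cluster, and Apoe and Apoc2 in another.

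Totals ran from 18655506 counts in control 1 to 39379940 in control 2. Libraries control 1 and ML 9 stood apart from the others. Among the 1249 tested genes with under 1000 bp of exon, the median log2 deviation from the gene's mean reached 1.67 in ML 9 and 0.51 in control 1, with the remaining 8 libraries between -0.56 and 0.34. Insr, the insulin receptor gene, was at 62.9 to 128 CPM (counts per 1000000 counts of the library, after scaling by edgeR's TMM factors) in controls, 59.3 to 77.6 CPM in FL and 28.2 to 55.2 CPM in ML, with ML 9 lowest. All 7 hepatocyte markers were present, with a summed level of 55767 to 91509 CPM per library, most of it Alb. Single markers did not move alike in ML 9. There Tat had 2957 counts against 17123 to 189051 elsewhere, and Fgb 27912 against 47092 to 383338. Trf was highest in ML 9, with 49244 counts against 13782 to 32645. The 4 skeletal muscle markers Acta1, Ckm, Myh4 and Tnnt3 summed to 228 CPM in ML 9 and to at most 0.181 CPM elsewhere. The 4 adipocyte markers summed to 0.509 to 8.10 CPM in controls, 0.111 to 0.405 CPM in FL and 0.279 to 9.72 CPM in ML. Intestinal epithelium also makes several of these apolipoproteins. Its 7 markers summed to 66.1 to 377 CPM in controls, 40.4 to 95.7 CPM in FL and 99.1 to 632 CPM in ML, with control 1 and ML 9 highest. Fabp2, which liver also expresses, carried most of the sum, while Alpi had 49 counts and Cdh17 had 17 counts in control 3 and at most 1 count in any other library. Because ML 9 and control 1 weigh on groups of 3 and 4, the members' fold changes in which ML 9 or control 1 carries weight are also given without them.

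No member passed the test in any comparison, where passing means an edgeR quasi-likelihood p below 0.05 after Benjamini-Hochberg adjustment over all 14820 genes. What the libraries show is that Vldlr levels were lowest in all 3 FL libraries, Apoa4 levels were higher in all 3 ML libraries than in any control, and the short apolipoprotein transcripts were highest in 1 library, ML 9. In FL against control 0 of 10 members passed, as did 0.0135% of all genes, and 1 member was lower at an unadjusted p under 0.05, as were 1.9% of all genes. None was higher, against 1.63% of all genes. DESeq2 called 54 of 15632 genes in that comparison, of which 1 was a member, Vldlr. With limma-voom 1 of 14820 genes was called and no member. In ML against control 0 of 10 passed, as did 0% of all genes. There 3 members were higher at an unadjusted p under 0.05, against 8.81% of all genes, and 0 lower, against 7.33%. Neither DESeq2 nor limma-voom called a member, where they called 56 of 15632 and 0 of 14820 genes. In FL against ML 0 of 10 passed, as did 0.00675% of all genes. There 6 members were lower in FL at an unadjusted p under 0.05, against 12.4% of all genes, and 0 higher, against 7.59%. DESeq2 called 35 of 23629 genes there, of which 1 was a member, again Vldlr. With limma-voom 1 of 14820 genes was called and no member. Groups did not overlap for 2 members lower in FL than control, against 2.92% of all genes, and for 0 higher, against 2.79%. They did not overlap for 1 member higher in ML than control, against 2.17%, and 0 lower, against 2.86%. Between FL and ML they did not overlap for 5 members lower in FL, against 15.1%, and 0 higher, against 16.6%. FL and ML are each set against the same 4 controls, and FL against ML uses the same FL and ML libraries, so the comparisons are not independent of each other.

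**Figure D1:**
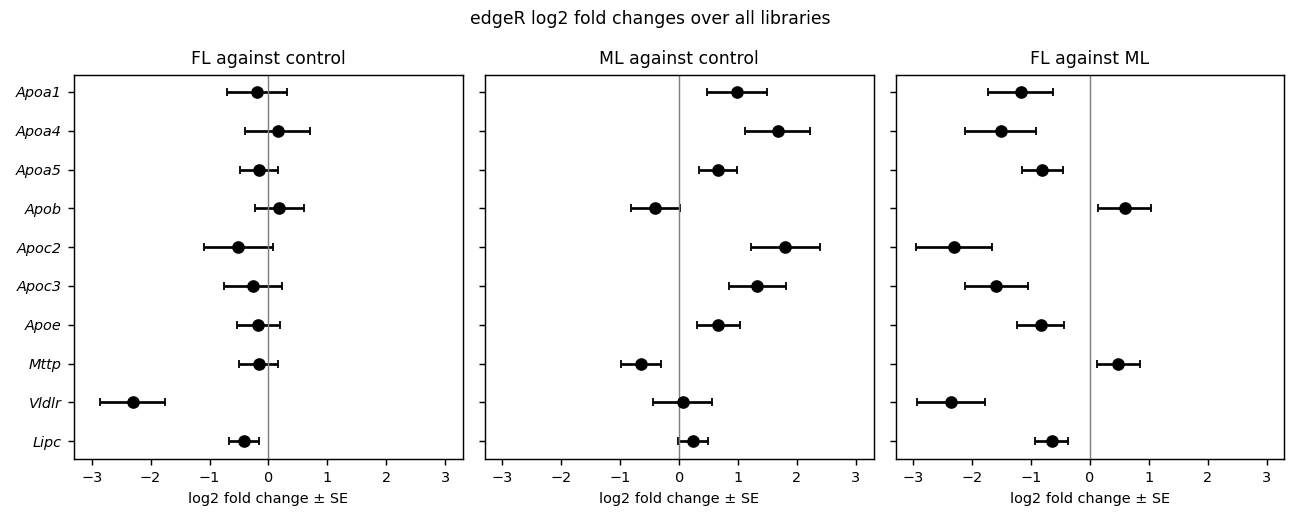
Log2 fold change (x axis, points) with its standard error (bars) for each gene (y axis) in the 3 comparisons, from the edgeR fit over 10 libraries. Vldlr is the point farthest from 0 in FL against control at -2.31, and Apoc2 the farthest in ML against control at 1.80.

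The 250 bases before the start site, or fewer where a GENCODE transcript begins earlier, are shown for the genes on which the group differences and the spread between libraries turn. Vldlr is shown because its levels were lowest in FL. Apoa4 is shown because its levels were higher in ML than in controls, and Apoa5, its neighbour on chromosome 9, because its levels differed less. Apob is shown because 2 libraries of different groups stood above the rest. Capitals mark exact matches on either strand to 5 motifs: CAAAGTNCA, a core of the site bound by the liver factor HNF4A; CACGTG, the E-box; TATAAA, the TATA box; CCAAT; and GGGCGG, the GC box. The sequences are from RefSeq on GRCm38.p6, 5′ to 3′, all on the plus strand.
Vldlr, chr19:27216234-27216483: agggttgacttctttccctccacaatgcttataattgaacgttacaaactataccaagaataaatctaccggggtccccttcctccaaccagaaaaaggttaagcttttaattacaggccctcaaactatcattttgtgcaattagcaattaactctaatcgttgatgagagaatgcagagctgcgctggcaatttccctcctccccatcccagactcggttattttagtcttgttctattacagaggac
Apoa4, chr9:46240594-46240695: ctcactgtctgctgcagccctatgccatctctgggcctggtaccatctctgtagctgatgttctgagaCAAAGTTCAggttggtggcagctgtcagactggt
Apoa5, chr9:46268358-46268607: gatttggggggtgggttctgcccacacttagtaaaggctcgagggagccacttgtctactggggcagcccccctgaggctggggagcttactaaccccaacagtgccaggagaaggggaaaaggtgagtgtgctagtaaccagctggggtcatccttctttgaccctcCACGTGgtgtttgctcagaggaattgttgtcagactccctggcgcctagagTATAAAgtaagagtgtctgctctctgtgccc
Apob, chr12:7977427-7977647: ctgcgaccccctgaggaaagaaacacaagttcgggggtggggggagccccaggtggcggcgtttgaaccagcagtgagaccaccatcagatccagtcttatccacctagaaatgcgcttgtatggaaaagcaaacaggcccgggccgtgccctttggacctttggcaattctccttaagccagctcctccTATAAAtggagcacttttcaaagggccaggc
Of the 10 members, 9 had an entry in the RefSeq table and Apoc3 did not. The HNF4A core was in the Apoa4 window, and in 1.19% of all 32851 windows of 250 bases. The E-box was in the Apoa5 window and in 6.02% of all windows. The TATA box was in the Apoa5 and Apob windows and in 12.4% of all windows. No motif matched the Vldlr window shown. RefSeq holds a second Vldlr start, whose window (chr19:27216770-27217019, downstream of the first start and not shown) holds CCAAT and GGGCGG on the minus strand. Matches on either strand were in 33.8% and 32.7% of all windows. The stretches shown for Apoa4 and Apob, of 102 and 221 bases, are shorter than the windows behind these shares. The matches describe the letters only.

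Levels between genes were compared per kilobase of exon, as CPM per kilobase averaged over the 10 libraries. Apoe, the ligand for uptake of remnants, was highest at 9766 ± 4620 CPM per kilobase (SD, n = 10), followed by Apoa1, the main protein of HDL, at 8410 ± 6573 (SD, n = 10). Apoc3, an inhibitor of lipoprotein lipase, was at 2699 CPM per kilobase, Apoa5, which promotes its action, at 744, and Apoc2, its activator, at 494. Apob, the structural protein of VLDL, was at 229 CPM per kilobase and Apoa4, carried on chylomicrons, VLDL and HDL, at 119. Lipc, hepatic lipase, was at 63.2 CPM per kilobase and Mttp at 39.9. Vldlr, a receptor for VLDL that is known mainly from heart, muscle and fat, was last at 0.173 CPM per kilobase. The order was the same per kilobase of the longest transcript. Apoe lay above Apoa1 in 9 of 10 libraries, Apob above Apoa4 in 8 of 10 and Apoa4 above Lipc in 7 of 10. Apoc2 lay above Apob in 8 of 10; its mean includes 2215 CPM per kilobase in ML 9, and it lay below Apob in control 3 (276 against 416) and in FL 5 (161 against 408). The ranges of every neighbouring pair overlapped over the 10 libraries except for Mttp and Vldlr. The 10 genes together took 3.29 to 4.06% of all counts in 9 libraries and 5.69% in ML 9.

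**Figure D2:**
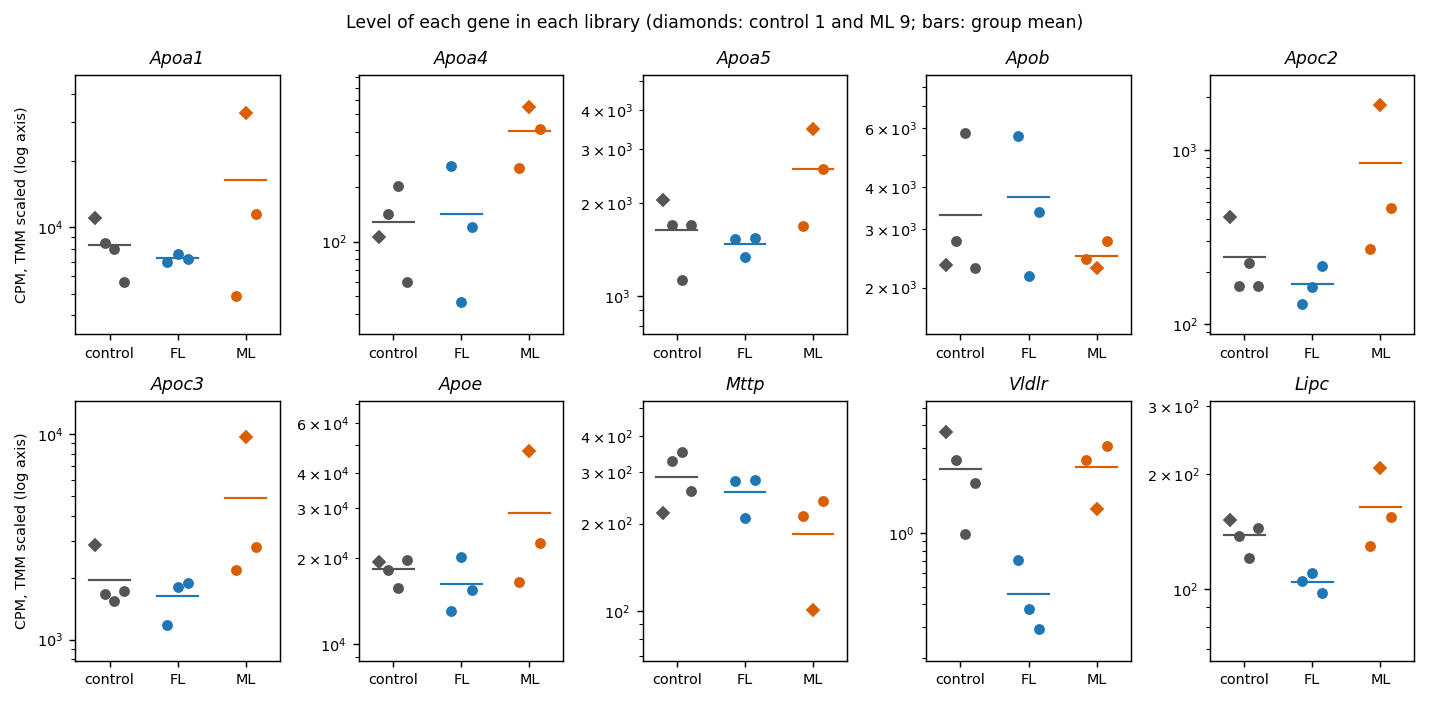
CPM (log y axis) of each gene in each library by group, with bars at the group mean and diamonds for control 1 and ML 9. In the Vldlr panel the 3 FL libraries lie between 0.291 and 0.704 CPM, below every control and ML library, and in the Apoa4 panel the 3 ML libraries lie between 253 and 553 CPM, above every control library.

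Vldlr (ENSMUSG00000024924, GRCm38 chromosome 19, 27216484 to 27254231, plus strand, 10068 bp of exon) had 64, 100, 38 and 85 counts in control 1 to control 4. It had 19, 13 and 10 counts in FL 5 to FL 7 and 97, 21 and 99 counts in ML 8 to ML 10. In CPM these are 3.65, 2.55, 0.983 and 1.91 in controls, 0.704, 0.376 and 0.291 in FL, and 2.55, 1.37 and 3.07 in ML. All FL libraries were below all control and all ML libraries. The mean was 0.457 ± 0.218 CPM (SD, n = 3) in FL. In controls it was 2.27 ± 1.12 CPM (SD, n = 4), and ML was close to that at 2.33 ± 0.871 CPM (SD, n = 3). For Vldlr, FL against control gave a log2 fold change of -2.31 (SE 0.56), with an unadjusted edgeR p of 0.00141, rank 36 of 14820 genes, and an edgeR adjusted p of 0.580. FL against ML gave -2.36 (SE 0.58; edgeR adjusted p 0.238), and ML against control gave 0.06 (SE 0.50).

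With DESeq2 the adjusted p of Vldlr was 0.0111 in FL against control and 0.0390 in FL against ML, so the call depends on the tool; over all settings run the adjusted p ranged from 0.0111 to 1.00 and from 0.0390 to 1.00. Without control 1 and ML 9 the log2 fold change was -1.99 in FL against control and -2.63 in FL against ML, with edgeR adjusted p of 0.398 and 0.213. The counts are low: the exact Poisson 95% interval, which covers counting error only, was 0.424 to 1.10 CPM in FL 5 and 0.696 to 1.35 CPM in control 3, which overlap. Muscle and fat markers were set beside it, since these tissues express Vldlr. ML 9, which had 761 counts of Acta1 and 1370 of Ckm, had the lowest Vldlr level of the ML group. All FL adipocyte sums, 0.111 to 0.405 CPM, lay below every control, of which the lowest was 0.509 CPM, as did the FL Vldlr levels. Cfd carried this separation, with 30, 18, 136 and 53 counts in control 1 to control 4 and 3, 14 and 4 in FL. Adipoq, Plin1 and Retn had at most 1 count each in control 1, control 2, control 4 and the FL libraries. Within controls, control 3 had the highest adipocyte sum at 8.10 CPM and the lowest Vldlr level. ML 10, with an adipocyte sum of 0.279 CPM, inside the FL range, had 3.07 CPM of Vldlr. The part of fat or muscle RNA in the Vldlr difference was not tested. In bulk liver, fewer cells of a type and less RNA per cell cannot be told apart.

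Among 7031 genes with a mean of at least 10 CPM, Vnn1, a pantetheinase gene, had the pattern nearest to Vldlr. Likeness was the root mean square difference between log2 CPM values centred on each gene's mean, here 0.48 over 10 libraries, where Vldlr itself had an SD of 1.196. Vnn1 stayed nearest without control 1 and ML 9, at 0.41 over 8 libraries. Its level was 50.8, 49.9, 21.9 and 33.6 CPM in controls, 13.6, 9.50 and 12.4 CPM in FL, and 30.9, 49.8 and 57.2 CPM in ML. As with Vldlr, the 3 FL libraries were lowest and control 3 was the lowest control. Vnn1 was picked for its likeness over these same libraries, so this shared order is no separate evidence.

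Lipc (ENSMUSG00000032207, chromosome 9, 70798128 to 70952226, minus strand) hydrolyses lipid of remnants and HDL at the surface of liver sinusoids. Its level was 152, 138, 121 and 144 CPM in control 1 to control 4, 105, 110 and 97.8 CPM in FL 5 to FL 7, and 130, 207 and 154 CPM in ML 8 to ML 10. The FL libraries were again below all control and ML libraries, and FL varied least, with a coefficient of variation of 5.95%. The difference was small: the log2 fold change was -0.41 (SE 0.26) in FL against control and -0.65 (SE 0.28) in FL against ML, with edgeR adjusted p of 1.00 and 0.239. Without control 1 and ML 9 these were -0.36 and -0.45.

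Apoa4 (ENSMUSG00000032080, chromosome 9, 46240696 to 46243459, plus strand) is made in intestine as well as liver and varied widely within groups. Its level was 106, 141, 203 and 60.1 CPM in control 1 to control 4. It was 260, 46.3 and 121 CPM in FL 5 to FL 7, a 5.62-fold range within FL. In ML 8 to ML 10 it was 253, 553 and 416 CPM, so every ML library was above every control. FL 5, at 260 CPM, lay within the ML range, so FL and ML overlapped. Means were 407 ± 150 CPM (SD, n = 3) for ML against 128 ± 60.2 CPM (SD, n = 4) for controls, a log2 fold change of 1.67 (SE 0.55) with an unadjusted edgeR p of 0.0105 and an edgeR adjusted p of 0.301. This value was 1.40 without ML 9 and 1.31 without control 1 and ML 9. The part of the intestinal markers, also highest in ML 9, in the Apoa4 levels was not tested. Their sum in ML 8, 99.1 CPM, lay below that of control 1, 377 CPM, while Apoa4 was at 253 CPM in ML 8 and 106 CPM in control 1. Fabp2, which liver also expresses, carried most of these sums, so they say little about intestinal RNA. Alpi and Cdh17 had 49 and 17 counts in control 3, the control with the highest Apoa4 level, and 0 counts in all 3 ML libraries. Other intestinal markers differed from these. Vil1 had 24 counts in control 3 and 21, 0 and 5 in ML 8 to ML 10. Treh had 72, 34 and 62 counts in ML against 23 to 239 in controls. Lct and Sis had at most 7 counts in any library. In FL against control the log2 fold change of Apoa4 was 0.16 (SE 0.55) and changed sign to -0.61 without FL 5. Antisense models cover part of its exons, and the strand setting of the counting is not given in the sources used here.

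Apoc2 (ENSMUSG00000002992, chromosome 7, 19671579 to 19677941, minus strand) had the shortest exon length of the members, 813 bp. Its level was 414, 166, 224 and 165 CPM in control 1 to control 4, 131, 164 and 216 CPM in FL, and 271, 1801 and 462 CPM in ML. ML 9 held 1801 CPM, and among controls control 1 was highest and fell between ML 8 and ML 10. In ML against control Apoc2 had a log2 fold change of 1.80 (SE 0.58), with an unadjusted edgeR p of 0.00922 and an edgeR adjusted p of 0.301. Without ML 9 this became 0.61, and without control 1 and ML 9 it became 0.99 (SE 0.30); the edgeR adjusted p values were 0.867 and 0.101, within a range of 0.0600 to 0.999 over all settings run. All FL libraries were below all ML libraries, with a log2 fold change of -2.31 (SE 0.65), or -1.11 without control 1 and ML 9. The read-through gene Gm44805 shares 646 bp of the Apoc2 exons on the same strand and has no row in the gene count table. Whether reads of read-through transcripts were counted as Apoc2 is not known.

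Apoc3 (ENSMUSG00000032081, chromosome 9, 46232933 to 46235636, minus strand), the next shortest at 1014 bp, was likewise highest in ML 9 and, among controls, in control 1. Its level was 2882, 1667, 1541 and 1729 CPM in controls, 1183, 1800 and 1892 CPM in FL, and 2188, 9656 and 2829 CPM in ML. Within each library the ratio of Apoc2 to Apoc3 counts stayed between 0.0909 and 0.187, although Apoc2 itself spanned a 13.8-fold range. Apoc3 stood at a log2 fold change of 1.32 (SE 0.48) in ML against control (edgeR adjusted p 0.301). Without ML 9 it was 0.37, and without control 1 and ML 9 it was 0.61. In FL against control Apoc3, an inhibitor of triglyceride clearance, was at -0.27 (SE 0.49). Without control 1 this was -0.0179, and without control 1 and ML 9 it was -0.0131. All FL libraries were below all ML libraries, at -1.59 (SE 0.53, edgeR adjusted p 0.238), or -0.63 without control 1 and ML 9.

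Apoa1 (ENSMUSG00000032083, chromosome 9, 46228580 to 46230466, plus strand) was at 10986, 8508, 7974 and 5634 CPM in controls and at 6968, 7542 and 7225 CPM in FL, a coefficient of variation of 3.97% in FL. In ML it was at 4912, 32766 and 11436 CPM, so ML held both the lowest and the highest library of the series. Against control, ML had a log2 fold change of 0.98 (SE 0.51), which was -0.0046 without ML 9 and 0.16 without control 1 and ML 9.

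Apoe (ENSMUSG00000002985, chromosome 7, 19696109 to 19699188, minus strand) took 1.52 to 2.76% of all counts in a library. Its level was 19441, 18132, 15745 and 19799 CPM in controls, 13063, 20215 and 15434 CPM in FL, and 16470, 47843 and 22652 CPM in ML. Outside ML 9 the groups overlapped, and the log2 fold change in ML against control went from 0.67 (SE 0.37) to 0.11 without ML 9. Apoe is also made by macrophages. The 7 Kupffer cell markers summed to 908 CPM in ML 9 and 202 to 396 CPM in the other libraries. Clec4f with 7679 counts and Cd5l with 4354 carried most of the ML 9 sum. The other Kupffer cell markers had 67 to 667 counts there. These counts are not scaled for library size, so they do not show whether the whole list was raised. The part of Kupffer cell RNA in the Apoe level of ML 9 was not tested.

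Apoa5 (ENSMUSG00000032079, chromosome 9, 46268633 to 46271919, plus strand) was at 2053, 1700, 1128 and 1696 CPM in controls, 1529, 1340 and 1549 CPM in FL, and 1683, 3486 and 2593 CPM in ML. All FL libraries were below all ML libraries, while both overlapped the controls. Its log2 fold change was -0.81 (SE 0.35) in FL against ML (edgeR adjusted p 0.240) and 0.65 (SE 0.32) in ML against control. Without ML 9 these were -0.55 and 0.39, without control 1 and ML 9 -0.54 and 0.51, and with 1 surrogate variable in the fit -0.35 and 0.28.

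Apob (ENSMUSG00000020609, chromosome 12, 7977648 to 8016835, plus strand), with 13934 bp of exon, did not follow the short apolipoprotein genes. Its level was 2342, 2768, 5797 and 2285 CPM in control 1 to control 4, 5679, 2173 and 3375 CPM in FL 5 to FL 7, and 2433, 2286 and 2761 CPM in ML 8 to ML 10. Control 3 and FL 5, of different groups, were the highest libraries, and no other exceeded 3375 CPM. For Apob, FL against control gave a log2 fold change of 0.18 (SE 0.42), or -0.25 without FL 5 and 0.60 without control 3. ML against control gave -0.40 (SE 0.42), or 0.0161 without control 3. Without control 1 and ML 9 the values were 0.05 and -0.48. Itih5, nearest in pattern to Apob over 10 libraries at 0.20, was likewise highest in FL 5 at 23.5 CPM and in control 3 at 15.5 CPM. The remaining libraries had 6.53 to 11.3 CPM. Itih5 was picked for its likeness over these libraries, so this too is no separate evidence. Control 3 had 49 counts of the intestinal gene Alpi and 17 of Cdh17, FL 6 had 1 of each and FL 5 had 0. The intestinal markers Vil1 and Treh had 24 and 100 counts in control 3, 9 and 31 in FL 5, and 11 and 103 in FL 6. The part of intestinal RNA in the Apob levels was not tested.

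Mttp (ENSMUSG00000028158, chromosome 3, 138089854 to 138144968, minus strand), which loads lipid onto apolipoprotein B, was at 218, 327, 352 and 258 CPM in controls, 280, 209 and 282 CPM in FL, and 213, 101 and 238 CPM in ML. ML 9, highest for 7 of the other members, was lowest for Mttp. For Mttp the log2 fold change was -0.17 (SE 0.34) in FL against control and -0.65 (SE 0.34) in ML against control. The ML value was -0.34 without ML 9, -0.47 (SE 0.23) without control 1 and ML 9 and -0.25 with 1 surrogate variable. Neither Mttp nor Apob, the pair that starts VLDL assembly, passed the test in either group of offspring.

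**Figure D3:**
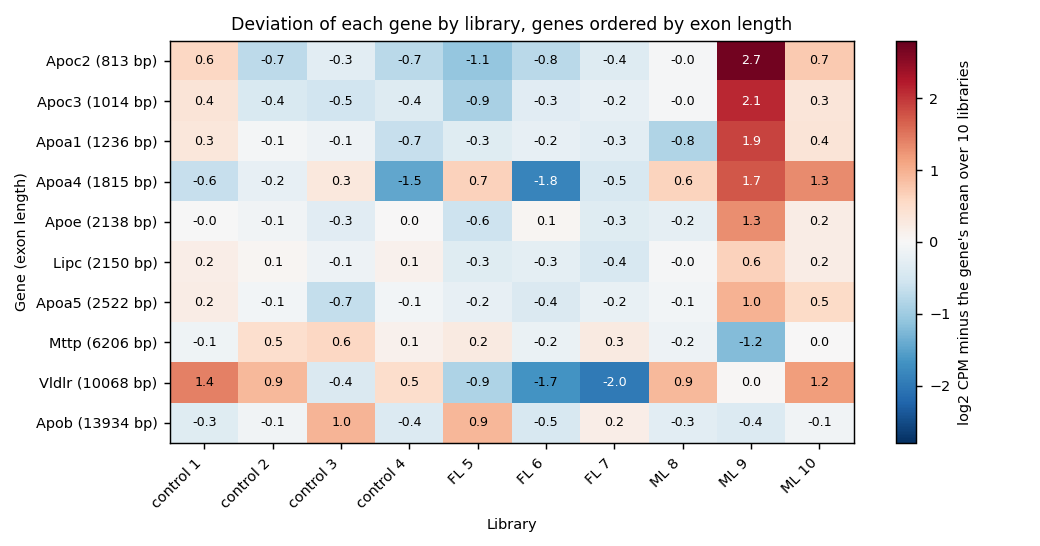
Log2 CPM of each gene minus its mean over 10 libraries (colour and printed value), with libraries on the x axis and genes ordered from the shortest to the longest exon length on the y axis. The ML 9 column runs from 2.70 for Apoc2, the shortest, to -1.22 for Mttp and -0.38 for Apob.

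In ML 9 the shortest members deviated most from their means over libraries. On the log2 scale the deviations were 2.70 for Apoc2, 2.11 for Apoc3, 1.89 for Apoa1, 1.74 for Apoa4 and 1.29 for Apoe, all with under 2150 bp of exon. They were 0.64 for Lipc, 0.97 for Apoa5, -1.22 for Mttp, 0.04 for Vldlr and -0.38 for Apob. Apoa1 counts were 14.3 times Apob counts in ML 9 and 4.69 times in control 1, and this ratio ran from 1.23 to 4.14 across the rest. Over all 10 libraries the gene nearest in pattern to Apoc3 was Cox8a, a short subunit gene of the respiratory chain, at 0.08, and that nearest to Apoe was Atp5d, a subunit gene of ATP synthase, at 0.08. The nearest gene was Selenow for Apoc2 at 0.15, Serpina11 for Apoa1 at 0.19, Idh3b for Apoa5 at 0.16, Pcca for Lipc at 0.11, Ubxn7 for Mttp at 0.11 and Abhd17b for Apoa4 at 0.65. Over 8 libraries, without control 1 and ML 9, Serpina11 was again nearest to Apoa1, at 0.12. Nearest to the others then were Hnmt to Apoc2 at 0.09, Fuca1 to Apoc3 at 0.04, Akr7a5 to Apoe at 0.05, Timm44 to Lipc at 0.09, Fam104a to Apoa5 at 0.13, Stim1 to Mttp at 0.05, Psd3 to Apob at 0.14 and Arhgap5 to Apoa4 at 0.40. Over the tested genes the short-gene excess was also greatest in ML 9; its part in the ML values of these members was not tested.

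With control 1 and ML 9 left out, the median log2 fold change of the 10 members in ML against control went from 0.66 to 0.33, against -0.05 and -0.06 for all genes tested. Then 2 members, Apoc2 and Apoc3, were higher at an unadjusted p under 0.05, as were 12.4% of all genes. In FL against ML the median of the members went from -1.01 to -0.49, against 0.04 and 0.06 for all genes. There 4 members were lower at an unadjusted edgeR p under 0.05, as were 8.69% of all genes. Leaving out ML 9 alone gave 2 members lower, with 2.05% of all genes, and 1 surrogate variable gave 1, with 1.28%. For FL against control without control 1 and ML 9, the members' median went from -0.18 to -0.07, against -0.05 and -0.003 for all genes. Vldlr was the member whose log2 fold change stayed furthest from 0 in both comparisons with FL.

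**Figure D4:**
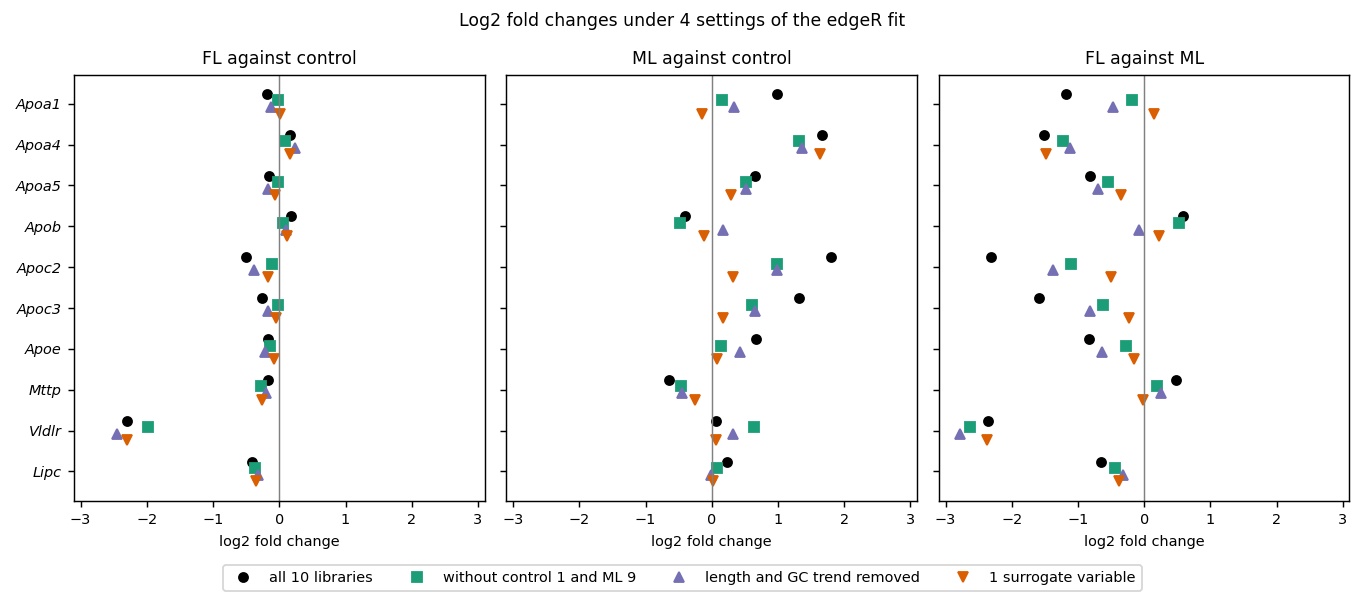
Log2 fold change (x axis) of each gene (y axis) in the 3 comparisons under 4 settings of the edgeR fit, shown as different symbols. Vldlr stays between -2.45 and -1.99 in FL against control, while Apoc2 ranges from 0.33 to 1.80 in ML against control.

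Other genes of lipoprotein metabolism were read from 4 lists holding 84 genes, of which 81 were tested; none passed with edgeR in any comparison. At an unadjusted p under 0.05 there were 5 of 81 in FL against control, 19 of 81 in ML against control and 19 of 81 in FL against ML, where 3.53%, 16.1% and 20% of all genes were. DESeq2 called 1 of the 80 it tested in FL against control, Angptl8, where it called 54 of all 15632 genes. It called 0 of the list genes in the other comparisons, and limma-voom called 0 in all 3. Among the other apolipoproteins, 0 of 11 had an unadjusted p under 0.05 in FL against control, and 3 of 11 were higher in ML against control, where 8.81% of all genes were. These were Apoc1 at 1.78 (SE 0.62), Apoc4 at 1.97 (SE 0.74) and Apom at 0.96 (SE 0.39) on the log2 scale. Apoc1 and Apoc4 lie between Apoe and Apoc2 in the chromosome 7 cluster. Without control 1 and ML 9 these were 0.86, 0.97 and 0.38. Apoa2, a protein of HDL, was at 0.67 (SE 0.37), and at 0.15 without these libraries. Between FL and ML, 3 of 11 were lower in FL, where 12.4% of all genes were: Apoc1, Apoc4 and Apoa2 were at -2.25, -2.56 and -1.01, or -0.89, -0.87 and -0.48 without them, and Apom was at -0.82. In FL against control the lowest p values belonged to Apoh at -0.27, Apobr at 0.43, Apoa2 at -0.33 and Apoc4 at -0.59, with unadjusted edgeR p from 0.326 to 0.443.

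Among 21 tested genes of VLDL assembly and secretion, none had an unadjusted p under 0.05 in FL against control, where Aadac, an arylacetamide deacetylase, was at -0.61, Sar1b at -0.70, Lpcat3 at -0.42 and Ces1d at -0.50. At that threshold 2 of 21 were higher and 1 was lower in ML against control, where 8.81% of all genes were higher and 7.33% lower. Ces1d, a lipase that releases stored triglyceride for VLDL, averaged 1693 ± 1052 CPM (SD, n = 3) in ML against 646 ± 203 CPM (SD, n = 4) for the control group, at 1.39 (SE 0.49) on the log2 scale and 1.26 without control 1 and ML 9. Pla2g12b, needed for VLDL lipidation, was at 1.29, or 0.67 without them. Lpcat3, which enriches membranes and VLDL in polyunsaturated phospholipid, was at -1.0027 (SE 0.36), or -1.04 without them, and Sort1, a sorting receptor, at -0.95, or -1.11 without them. Between FL and ML, 4 of 21 were lower in FL at that threshold, against 12.4% of all genes, namely Ces1d at -1.89, Pla2g12b at -1.64, Smlr1 at -1.58 and Sar1b, a COPII GTPase, at -1.32. Without control 1 and ML 9 these were -1.52, -0.60, -0.47 and -1.09.

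Among 24 tested lipases, receptors and remodelling genes, 1 was higher and 2 were lower at an unadjusted p under 0.05 in FL against control, against 1.63% and 1.9% of all genes. Angptl8, an insulin-induced inhibitor of lipoprotein lipase, averaged 120 ± 82.9 CPM (SD, n = 3) in FL against 16.2 ± 8.91 CPM (SD, n = 4) for the control group. Its log2 fold change was 2.89 (SE 0.73), or 3.34 without control 1 and ML 9, and the groups overlapped. The adjusted p was 0.650 by edgeR and 0.0123 by DESeq2. Cd36, a fatty acid transporter, was at -1.28 (SE 0.35) and Lipg, endothelial lipase, at -1.30 (SE 0.51), both with all FL libraries below all controls. Without control 1 and ML 9 these were -1.18 and -1.16. Angptl4, another inhibitor of lipoprotein lipase, was at -0.75. At that threshold 1 of 24 was higher and 4 were lower in ML against control, where 8.81% of all genes were higher and 7.33% lower. Pltp, the phospholipid transfer protein, was at -1.36 (SE 0.43), or -1.40 without control 1 and ML 9, while Angptl8 was at 1.98 (SE 0.71), or 1.40 without control 1 and ML 9. Between FL and ML, 4 of 24 were higher in FL and 4 lower, against 7.59% and 12.4% of all genes. Among the latter, Cd36 was at -1.38, or -1.57 without control 1 and ML 9, and Gpihbp1, the capillary anchor of lipoprotein lipase, at -2.11, or -0.78 without them.

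Among 25 transcription factors, 1 was higher and 1 lower at an unadjusted p under 0.05 in FL against control: Foxa3 at 1.21 (SE 0.35) and Ppargc1a, a coactivator for FOXO1 and HNF4A, at -1.27 (SE 0.48), where 1.63% of all genes were higher and 1.9% lower. Onecut1 was at 1.37 and Foxa1 at 0.64. At that threshold 4 of 25 were higher and 4 lower in ML against control, where 8.81% of all genes were higher and 7.33% lower. Nr1d1, the clock repressor REV-ERB alpha, averaged 6.39 ± 6.26 CPM (SD, n = 3) in ML against 39.1 ± 27.6 CPM (SD, n = 4) for the control group, at -2.60 (SE 0.85), or -2.54 without control 1 and ML 9. Nr1h3, the oxysterol receptor LXR alpha, was at 1.19, Foxa3 at 0.96 and Usf1 at 1.15; without control 1 and ML 9 these were 0.57, 0.74 and 0.58. Between FL and ML, 3 of 25 were higher in FL and 1 lower, against 7.59% and 12.4% of all genes. Nr1d1 was at 2.51, Srebf2 at 1.05 and Nr1h3 at -1.13, or 2.11, 0.76 and -0.36 without control 1 and ML 9. The medians of the 4 lists lay between -0.07 and 0.06 in FL against control, between -0.19 and 0.15 in ML against control and between -0.23 and 0.27 in FL against ML, where those of all genes tested were -0.05, -0.05 and 0.04.

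**Figure D5:**
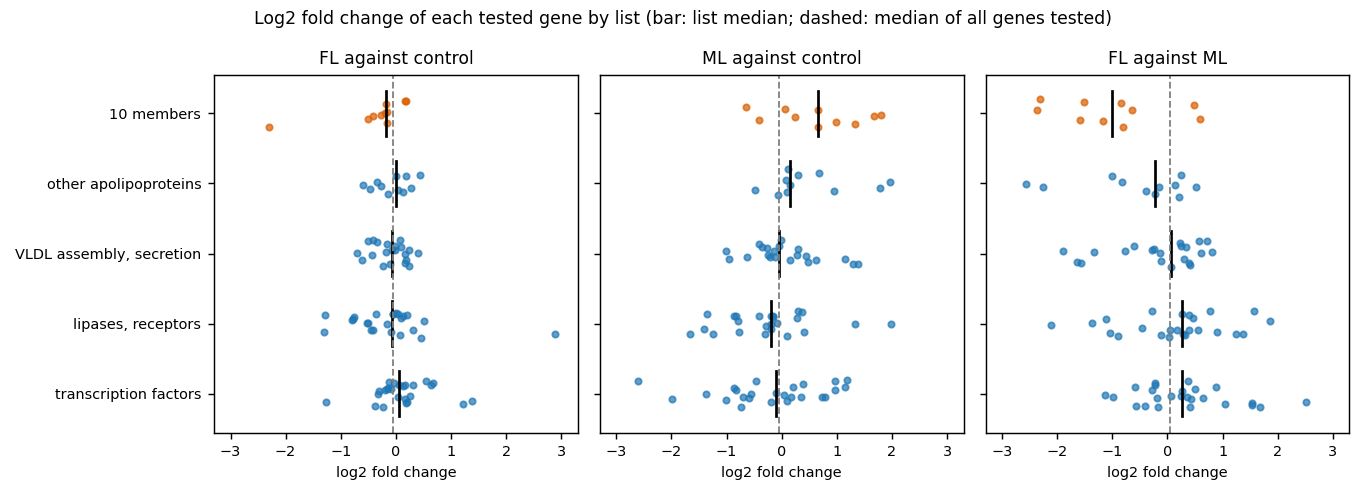
Log2 fold change (x axis) of each tested gene by list (y axis) in the 3 comparisons, with a bar at the list median and a dashed line at the median of all genes tested. The members' median lies at 0.66 in ML against control, and Angptl8 lies at 2.89 in FL against control.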

How the data were processed

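Liver RNA of 10 mouse libraries was measured by RNA sequencing. The deposited values are raw counts of reads per Ensembl gene. Per the labels' protocols, directional polyadenylated libraries were sequenced as paired ends. The authors' tools were STAR and featureCounts on GRCm38, per the submitters' processing notes. Their versions, the strand setting and the annotation release are not stated there. Of 46071 gene rows, 45229 matched GENCODE M21 by identifier, which gave symbols, coordinates, exon length and GC content.

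Counts were tested with edgeR 4.0.16 in R 4.3.3: filterByExpr with a minimum count of 10, TMM factors and a robust quasi-likelihood F test on all 10 libraries, with a coefficient per group and 7 residual degrees of freedom. The threshold was an adjusted p under 0.05 (Benjamini-Hochberg, two-sided, 14820 genes). Standard errors were derived from the F statistic and the log2 fold change. CPM uses the TMM-scaled library sizes, with no pseudocount; log2 CPM uses a prior count of 2. The fit was tested on simulated data. No 2 libraries of a group were alike within sampling noise; the lowest chi-square divided by its degrees of freedom was 82.5.

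The members, lists, rules and alternatives were chosen with earlier results of these data known. The text names all members, list genes past the threshold and the 4 with the lowest p per list and comparison, of which some are not reported here, and for each member the nearest gene in pattern (no Gm or Rik symbol, mean CPM of at least 10). Alternatives were DESeq2 1.42.0, limma-voom (limma 3.58.1), RLE size factors, no filter, a fit of the compared groups only, leaving out control 1 and ML 9, subtracting each library's trend with exon length and GC, 1 surrogate variable (sva 3.50.0) and leaving out each library.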

Additional observations from a re-analysis of the deposited data

Results flagged for a closer look

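Among the 4 controls, Apob in control 3 stood apart at 5797 CPM: its gap to the next control was 0.863 of the group's range, above Dixon's 95% critical value for 4 values. Apoc3 in control 1 stood apart at 2882 CPM, with a gap of 0.860 of the range. Chance alone marks about 1 in 20 such groups, and the 10 members were each looked at once.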

How the results depend on the processing

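No paired analysis was possible because the groups share no replicate numbers. Counts of members called stayed at 0 under every setting run except DESeq2, which called 1 in FL against control and 1 in FL against ML, Vldlr in both. Over all genes, FL against control gave 2 calls, but 54 with DESeq2, 1 with limma-voom, 1 with no filter on low counts and 0 to 2 with 1 library left out. ML against control gave 0 calls, but 56 with DESeq2, 3 with no filter and 0 to 1 with 1 library left out. FL against ML gave 1 call, but 35 with DESeq2, 2 with no filter, 0 with the compared groups only, 2 with the length and GC trend removed and 0 to 1 with 1 library left out. The causes were not tested. Each member was counted once per comparison and setting. With 1 library left out, the direction of the log2 fold change turned 9 times and was kept 191 times. Under the other settings it turned 8 times and was kept 230 times. A further 2 values, both Vldlr with DESeq2, kept it and passed the threshold. With the length and GC trend removed, Apob was at 0.18 and Lipc at -0.0088 in ML against control, and Apob at -0.0776 in FL against ML. With 1 surrogate variable, Apoa1 was at 0.0097 in FL against control, -0.14 in ML against control and 0.15 in FL against ML, and Mttp at -0.0153 in FL against ML. With limma-voom, Apoa4 was at -0.0387 in FL against control. With 1 library left out, Apoa4 ran from -0.61 to 0.58 and Apob from -0.25 to 0.60 in FL against control. In ML against control Apob ran from -0.55 to 0.0161, Vldlr from -0.20 to 0.38 and Apoa1 from -0.0046 to 1.41. Vldlr in FL against control kept its direction throughout, from -2.74 to -1.99. Depth limits Vldlr most, with 10 to 100 counts per library.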
